A study of Mus musculus with 4 samples.

Results

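Mouse chromosome 18 was followed gene by gene, in chromosome order, in 4 clones of J558, a BALB/c plasmacytoma line, that is, a tumour of antibody-secreting plasma cells. A gene entered when 1 of its probe sets carried a single gene symbol and had a mean signal over the 4 arrays at or above the median of all probe sets, and its brightest probe set then stood for it. This gave 261 chromosome 18 genes of 10440 genes over all chromosomes. Another 198 chromosome 18 genes were measured below that signal, which corresponds to 49.4 on the linear scale. The chromosome was chosen because its genes differ between these clones, and the genes were chosen by the signals of the same arrays, so every value on the differences along it is a description.

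The clones were made from J558 cells grown in RPMI medium with serum. AID, the cytidine deaminase that mutates immunoglobulin genes to start their hypermutation and class switching, was targeted in 2 clones by a sequence placed in a pSilencer vector. The 2 control clones received the vector without a targeting sequence. All 4 clones also received a vector with the neomycin resistance gene and were selected with G418. The labels arrange them as 2 pairs, each with a control clone and an AID-silenced clone, named here control 1 and silenced 1, and control 2 and silenced 2. The labels do not say what joins a pair. Each clone was measured once, on an Affymetrix Mouse 430 2.0 array, so a difference between groups is set against the spread between clones, which holds clonal and technical variation together. An exact permutation test of 2 clones against 2 cannot go below p = 0.333.

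The mouse chromosome has its centromere at one end, and gene order is counted here from that end. Chromosome 18 carries genes of many unrelated functions, among them the clustered protocadherins, the desmosomal cadherins, several SMAD and WNT signalling genes, and Cd74, the invariant chain of MHC class II. The arrays measure RNA and not DNA, so the number of copies of the chromosome in each clone was not measured. In such bulk RNA, fewer cells expressing a gene and less RNA per cell cannot be told apart.

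The arrays were comparable in level, with median signals of 52.7 to 54.9 over 45101 probe sets. All 8 plasma cell markers passed the signal threshold, at signals of 999 to 51693. Of the markers of other cells, 2 of 6 macrophage and monocyte markers, 1 of 5 T cell markers, 1 of 2 measured NK cell markers, 1 of 4 measured mature B cell markers and 1 of 4 fibroblast markers passed it. The 6 macrophage and monocyte markers summed to 1178 and 1070 in controls 1 and 2 and to 1210 and 1034 in the silenced clones, and 2 of them, Csf1r (213 to 293) and Cd14 (7.7 to 28.2), lie on chromosome 18. Cd68 made the largest part of these sums, at 572 to 866. The T cell markers summed to 83.5 to 152. Among them Cd8a, which passed the threshold, had 33.6 to 85.2, Cd3e 14.9 to 58.7, Cd5 3.6 to 15.4, Cd3d 2.2 to 12.1 and Cd4 5.4 to 7.5. The mature B cell markers summed to 203 to 429, with Ms4a1 at 391 in silenced 2 and 59.6 to 160 in the other clones. The fibroblast markers summed to 121 to 205. The NK cell receptor gene Klrk1 had 215 in control 1 and 1356 to 2104 in the other 3 clones, while Ncr1 had 5.3 to 51.2. Their part in the differences along the chromosome was not tested. Signals were compared as log2(signal + 16), and every difference is given after the median of that difference over all 10440 genes was taken off, which lay between −0.07 and 0.06. On this scale the differences of dim genes are understated.

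The first question was whether AID-silenced and control clones differed along the chromosome in each pair, and where such a difference began and ended. In pair 1, silenced 1 was higher than control 1 over the first 52 genes, from Crem to Mocos, with a median log2 difference of 0.74 (quartiles 0.49 and 1.05), a 1.67-fold level. Of these 52 genes, 49 lay above 0, 36 were at least 1.5-fold higher and 2 at least 1.5-fold lower. The next 209 genes, from Tpgs2 to Tmx3, had a median of 0.01 (quartiles −0.17 and 0.18), with 16 at least 1.5-fold higher and 16 lower. Over all chromosomes, 9.39% of genes were at least 1.5-fold higher in this pair and 6.94% lower. The break between Mocos and Tpgs2 was placed by a least-absolute-deviation segmentation that allowed segments of 10 genes or more. In the middle of the 52 genes, the window of 10 from Rock1 to Osbpl1a had the highest median, 1.07, and the 5 windows of the first 50 genes ran from 0.59 to 1.07. The other 21 windows ran from −0.26 to 0.13, so none of them reached the lowest of the first 5.

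In pair 2 the difference had another shape. Silenced 2 was higher than control 2 along the whole chromosome, with 1 segment of 261 genes, a median of 0.37 (quartiles 0.11 and 0.61), a 1.29-fold level, and 215 of 261 genes above 0. At least 1.5-fold higher were 73 genes (28.0%) and lower 18 (6.90%), against 10.2% and 8.98% of genes over all chromosomes. The 52 genes that were higher in silenced 1 had a median of 0.43 in this pair, and the 209 genes after them had 0.37. Of 26 windows, 25 were above 0.2, up to 0.63 from Rell2 to Arhgap26. The exception, from Impact to Asxl3, had a median of −0.14 in pair 2, but 0.48 for silenced 2 minus control 1.

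**Figure D1:**
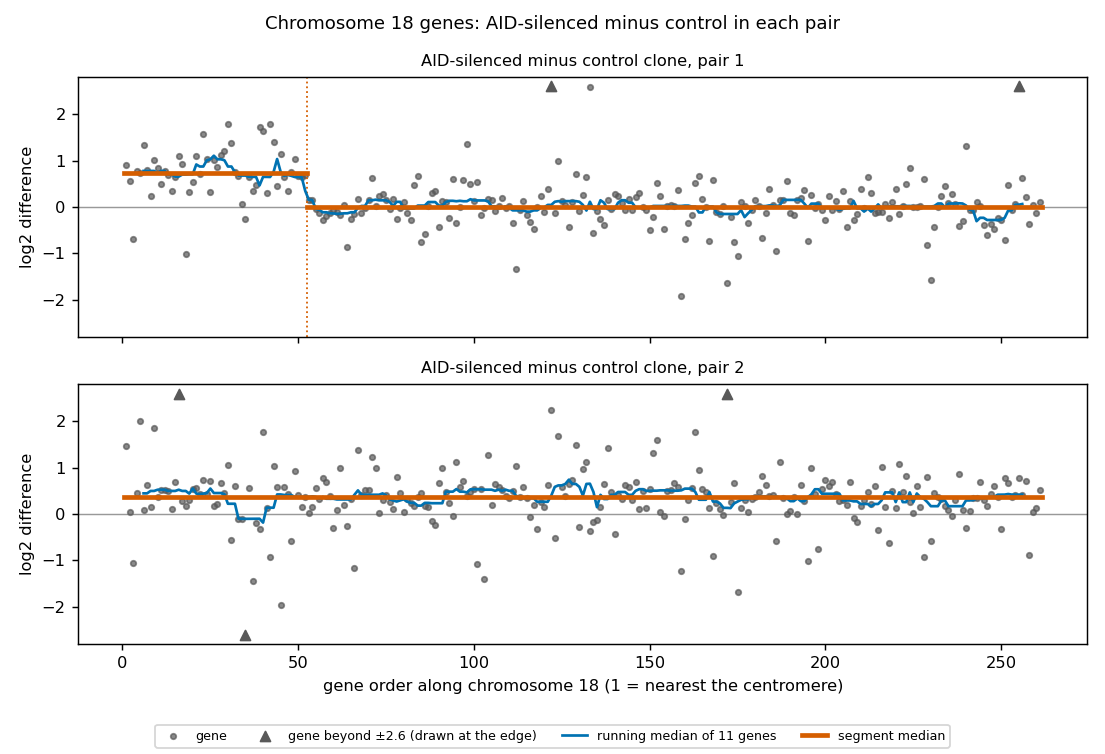
Log2 difference, silenced minus control, for each of the 261 chromosome 18 genes in gene order, in pair 1 (upper panel) and pair 2 (lower panel); grey points are genes, triangles genes beyond the axis, the blue line a running median and the orange bars segment medians. In pair 1 the orange bar drops from 0.74 over the first 52 genes to 0.01 over the other 209, and in pair 2 a single bar lies at 0.37.

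The end of the pair 1 shift fell between neighbouring genes that are all well expressed. Rprd1a, a regulator of RNA polymerase II that binds its C-terminal domain, had signals of 1759 in control 1, 1576 in control 2, 3616 in silenced 1 and 2976 in silenced 2. Both silenced clones were above both controls. Slc39a6, a zinc transporter, had 2186 and 2464 in controls 1 and 2 and 3491 and 3264 in silenced 1 and 2. Elp2, a subunit of the elongator complex that modifies transfer RNA, had 5606, 6778, 8735 and 7497 in the same order. In both genes the silenced clones again lay above the controls, but the gap was narrower for silenced 2, and a second, dimmer probe set of Elp2 had silenced 2 as the lowest clone. Mocos, which adds sulphur to the molybdenum cofactor, was the last gene of the raised block, at 842 and 930 in the controls and 1369 and 1199 in the silenced clones.

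On the other side the level of silenced 1 came down over a few genes. Tpgs2, a subunit of the tubulin polyglutamylase complex, had 602 and 537 in the controls and 673 and 541 in the silenced clones, so silenced 1 still lay above both controls. Pik3c3, the class III phosphoinositide 3-kinase that drives autophagy, had 671 and 769 in the controls and 745 and 848 in the silenced clones, and silenced 1 lay between the controls. Slc25a46, a protein of the mitochondrial outer membrane, had 1989, 1553, 1925 and 2303, and Sap130, a subunit of the Sin3 corepressor complex, 633, 601, 572 and 755. Silenced 1 was lowest of the 4 clones in Sap130 and silenced 2 highest in both genes.

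Counting every probe set of these genes gave a similar picture with 1 exception. The last 5 genes of the block (Galnt1, Rprd1a, Slc39a6, Elp2 and Mocos) held 10 probe sets, whose silenced 1 minus control 1 differences ran from 0.55 to 1.63, with a median of 0.70. Silenced 2 was the lowest clone at both probe sets of Galnt1, at 526 and 393. The first 4 genes after it held 7 probe sets, from −0.14 to 0.60, with a median of 0.16. The value of 0.60 came from a second, dimmer probe set of Slc25a46, whose brightest probe set gave −0.05. Tpgs2 was read by 3 probe sets at 0.16, 0.19 and 0.35, between the levels on both sides, and in all 3 silenced 1 lay above both controls. The reference table places 2 genes between Mocos and Tpgs2, 1 of them protein coding, and the one measured, Fhod3, had signals of 2.1 to 24.3, under the threshold. The end can therefore not be placed more finely than between Mocos and Tpgs2, or, where Tpgs2 is counted with the block, between Tpgs2 and Pik3c3.

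**Figure D2:**
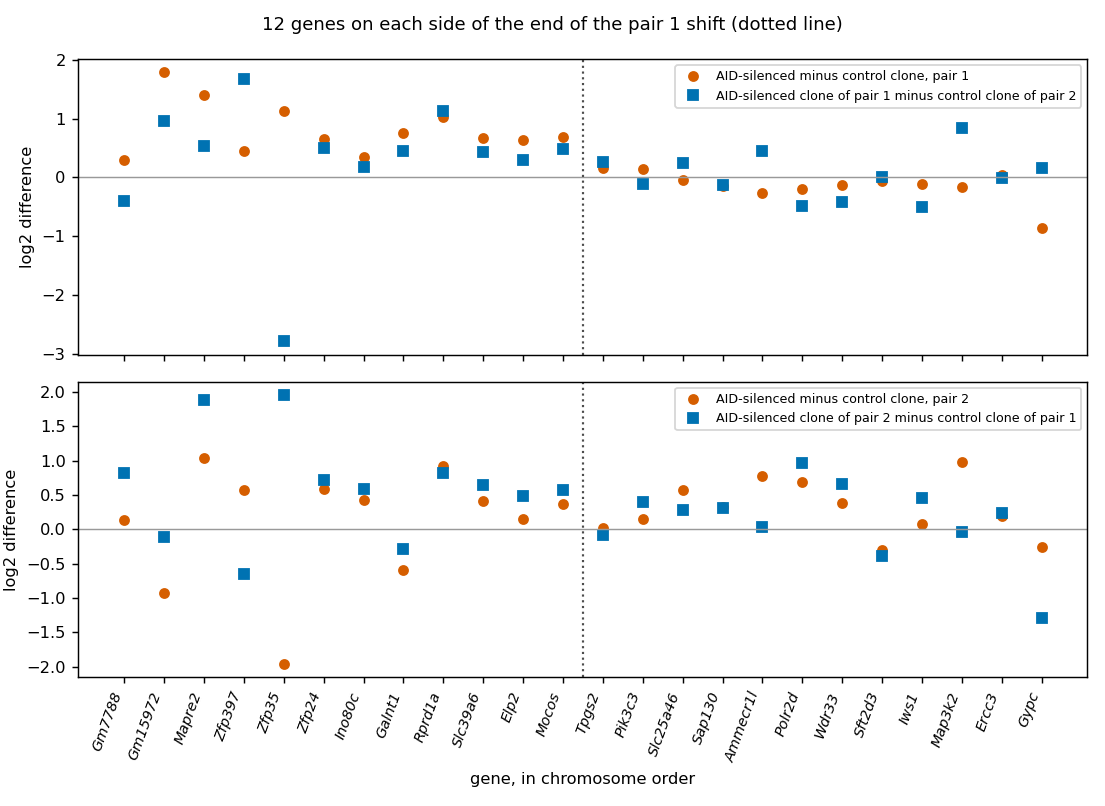
Log2 difference for the 12 genes before and the 12 genes after the end of the pair 1 shift (dotted line), for silenced 1 (upper panel) and silenced 2 (lower panel), each against the control clone of its own pair (circles) and of the other pair (squares). From Galnt1 to Mocos both marks of silenced 1 lie above 0, and from Tpgs2 on they lie on both sides of it. In the lower panel Rprd1a, Slc39a6, Elp2 and Mocos are above 0 too, while both marks of Galnt1 lie below it.

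The next question was which clone of a pair carried each shift, which the other 4 clone differences show. These share arrays with the pair differences, so their values are given side by side and not as further evidence. Control 2 minus control 1 had a single segment with a median of 0.02 over the 261 genes, with 30 genes (11.5%) at least 1.5-fold higher and 31 (11.9%) lower, against 11.6% and 14.6% over all chromosomes. Silenced 1 minus control 2 had a median of 0.68 over the same 52 genes, Crem to Mocos, and 0.00 over the other 209. Without the signal threshold that first segment ended earlier, at Npc1. In this difference the first 5 windows ran from 0.44 to 1.17 and the other 21 from −0.40 to 0.51, so they overlapped. Silenced 2 minus control 1 was again 1 segment, with a median of 0.37 and 201 of 261 genes above 0, and all 26 of its windows lay above 0, from 0.14 to 0.68. Against either control, then, the median difference of silenced 1 was raised over the first 52 genes and near 0 over the rest. That of silenced 2 was raised along the whole chromosome.

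Set directly against each other, the silenced clones changed order along the chromosome. Silenced 2 was lower than silenced 1 in the median of the first 53 genes, Crem to Tpgs2, at −0.21, with 18 of 53 genes above 0. It was higher over the next 208, Pik3c3 to Tmx3, with a median of 0.36, a 1.29-fold level, and 160 of 208 above 0. The lower level was uneven, as the first 5 windows of 10 genes had medians of −0.37, −0.01, −0.60, −0.10 and 0.03. The other 21 windows ran from 0.07 to 0.68. Over the whole chromosome, 59 genes (22.6%) were at least 1.5-fold higher in silenced 2 and 26 (9.96%) lower, against 9.01% and 12.9% over all chromosomes. This difference uses no control array but shares the silenced 1 array with pair 1, and its break lay 1 gene further than the end found there.

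**Figure D3:**
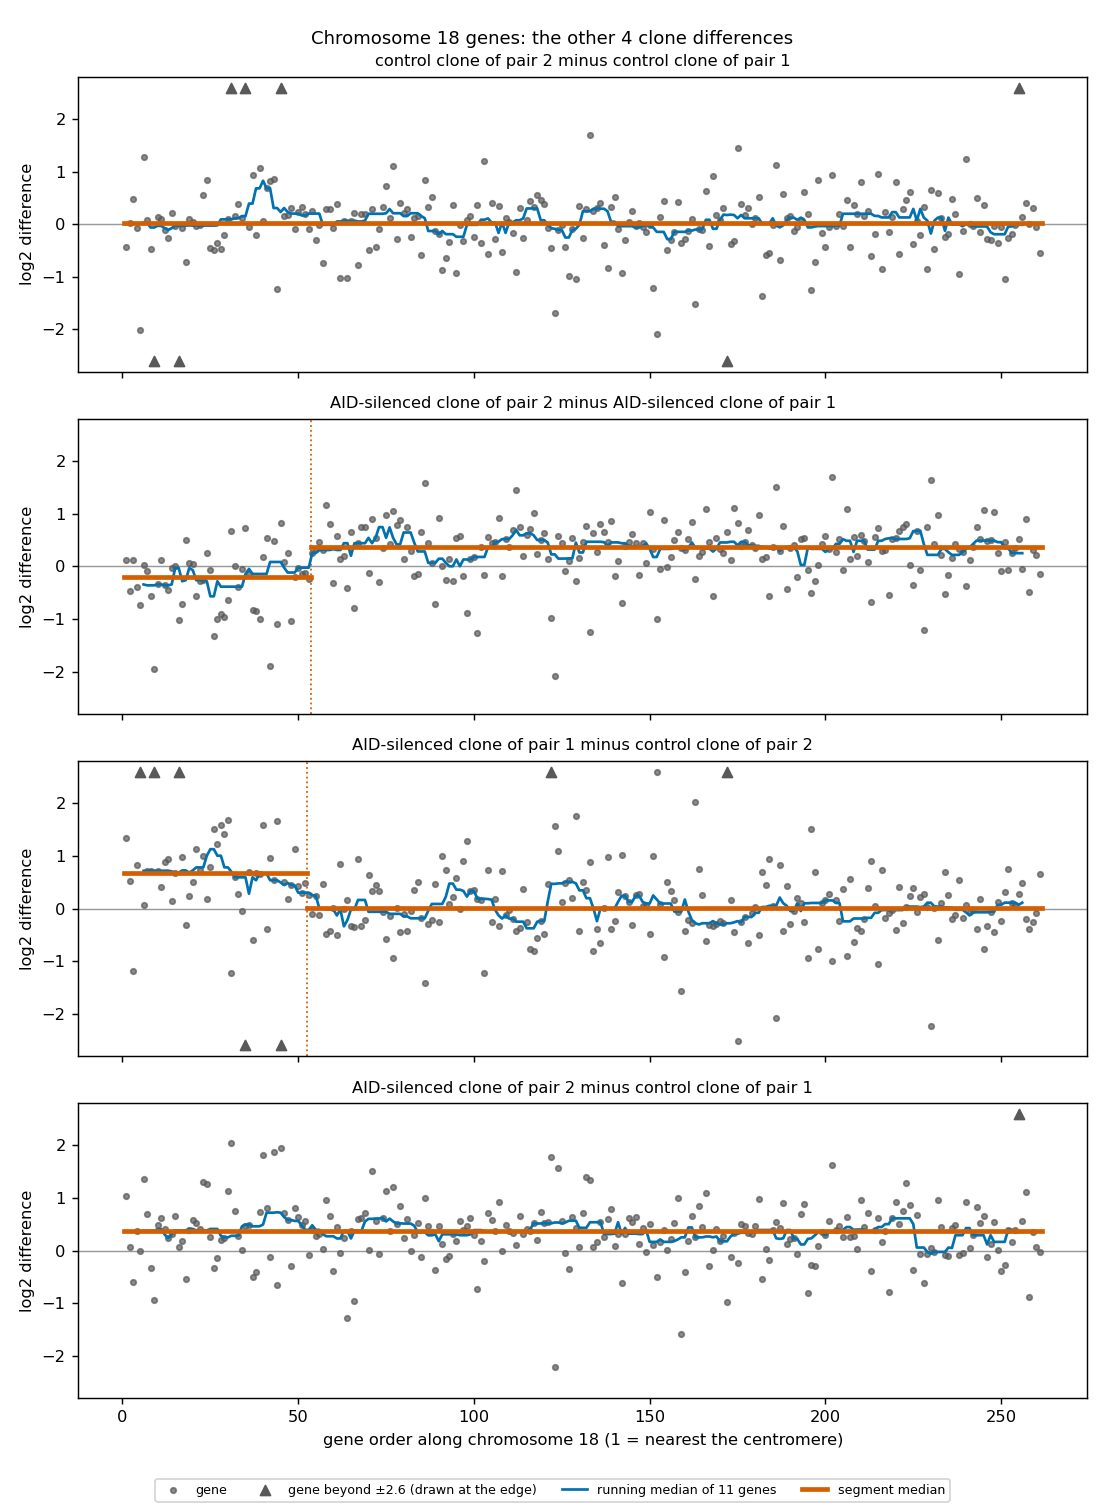
Log2 difference along chromosome 18 for the 4 clone differences other than the pairs, drawn as grey points per gene with a running median (blue) and segment medians (orange). Controls 2 and 1 stay at a median of 0.02, silenced 2 minus silenced 1 steps from −0.21 to 0.36, silenced 1 minus control 2 from 0.68 to 0.00, and silenced 2 minus control 1 stays at 0.37.

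Gene by gene, the order of the 4 clones differed between the regions. To find the highest clone, each array's median log2 value over all tested genes was first taken off. Among the first 52 genes, silenced 1 was highest in 27, silenced 2 in 18, control 2 in 6 and control 1 in 1. Among the other 209, silenced 2 was highest in 140, silenced 1 in 28, control 2 in 25 and control 1 in 16. On the other chromosomes silenced 1 was highest in 19.1% of genes, silenced 2 in 27.2%, control 2 in 33.1% and control 1 in 20.6%. The next counts were made without taking the array medians off. Both silenced clones lay above both controls in 32 of 52 genes (61.5%) and in 53 of 209 (25.4%), and below both in 1 and 11. Over all chromosomes these shares were 14.2% and 14.5%. The chromosome was chosen on these same arrays, so the counts describe it and test nothing.

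The levels were next compared by brightness, in 3 equal classes of mean signal over all tested genes. In the first 52 genes, silenced 1 minus control 1 had medians of 0.77 in the dim class (20 genes), 0.69 in the middle class (13) and 0.78 in the bright class (19), and every gene of the middle and bright classes lay above 0. In the other 209 genes, silenced 2 minus control 2 had medians of 0.17 in the dim class (41 of 65 above 0), 0.39 in the middle (67 of 72) and 0.40 in the bright class (66 of 72). There silenced 1 minus control 2 had medians of 0.11, 0.15 (45 of 72 above 0) and −0.18 (25 of 72) in the same classes. The 198 genes under the threshold had medians near 0 in both pairs, −0.01 and −0.01 in the 38 of the first region and −0.01 and 0.04 in the 160 of the second. Probe sets other than the brightest, again at or above the threshold, gave similar levels. In the first region 72 such probe sets of 34 genes had medians of 0.68 in pair 1 (70 above 0) and 0.50 in pair 2 (58 above 0). In the second, 222 probe sets of 118 genes had medians of 0.01 in pair 1 (115 above 0) and 0.42 in pair 2 (190 above 0).

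Single genes departed from the regional level far more than the region moved. At least 2-fold apart in both pairs were 11 chromosome 18 genes, of which 6 were higher in both silenced clones, 2 lower and 3 opposite in the 2 pairs. Over all chromosomes, 0.565% of genes were at least 2-fold higher in both pairs, 0.441% lower and 0.393% opposite. The 11 genes were picked by these differences, so the differences and standard errors given for them describe them and test nothing. Of the 6 higher genes, 5 lay in the first 52. Mapre2, a microtubule end-binding protein, was the brightest of them, with signals of 1921 and 3342 in controls 1 and 2 and 5078 and 6800 in silenced 1 and 2. All 4 of its other probe sets were higher in both pairs too, by 0.97 to 2.32 in pair 1 and 0.50 to 1.78 in pair 2. The 2.32 came from a dim probe set with a signal of 8.4 in control 1, under the threshold. Asxl3, a Polycomb-associated chromatin gene, had 64.4 in both controls and 235 and 256 in the silenced clones, a limma difference on the log2 scale of 1.70 with a standard error of 0.31 (n = 2 in each group). Its second probe set gave 1.85 and 3.17, but with signals of 29.9 and 4 in controls 1 and 2, both under the threshold.

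Osbpl1a, an oxysterol-binding protein of late endosomes, had 120 and 123 in the controls and 453 and 271 in the silenced clones. Its second probe set gave 1.90 in pair 1 and 0.33 in pair 2, so the 2-fold level held in both pairs at the brightest probe set only. Arhgap12 had 871 in control 1, 106 in control 2, 1782 in silenced 1 and 427 in silenced 2. Its dimmer probe sets gave 0.37 and 0.47 in pair 1 and, in the same order, 0.54 and 1.46 in pair 2. Here too the 2-fold level held in both pairs at the brightest probe set only. Fzd8, a WNT receptor, had 153 in control 1, 4.2 in control 2, 345 in silenced 1 and 153 in silenced 2. In both of these genes the groups overlapped, and the clones of pair 1 were above those of pair 2 in both groups. Arhgap12 was lower by at least 2-fold in pair 2 in both groups, as were Arap3, Zfp397 and Fzd8. Apcdd1, an inhibitor of WNT signalling, and Gfra3, a coreceptor for artemin, were at least 2-fold higher in pair 2 in both groups.

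In the other 209 genes, Fchsd1, which binds the actin-polymerising WASP machinery, had 17.2 and 7.1 in the controls and 210 and 92.8 in the silenced clones, a difference of 2.50 with a standard error of 0.48 (n = 2 in each group). Its control signals lay under the threshold, and its mean of 6.04 lay just above it, at 6.03. The 2 genes lower in both pairs ran against the regional level. Gramd3, a GRAM domain protein, had 510 and 378 in the controls and 122 and 152 in the silenced clones, a difference of −1.58 with a standard error of 0.32 (n = 2 in each group), and its second probe set gave −1.97 and −1.05. Camk2a, a calcium and calmodulin dependent kinase, had 53.3 and 166 in the controls and 17.3 and 40.4 in the silenced clones.

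In other genes the controls lay far apart. Cd74 had 4931 in control 1, 138 in control 2, 1573 in silenced 1 and 2375 in silenced 2, so that control 2 alone was low and the 2 pairs went opposite ways, by −1.64 and 3.97. Dsg2, a desmosomal cadherin, had 568 in control 2 and 18.1 to 37.8 in the other 3 clones. Cyb5a, a haem protein of the endoplasmic reticulum, had 108 in control 1 and 1208 to 2081 in the others. Impact, a regulator of translation through the kinase Gcn2, had 581 in control 1, 3463 in control 2, 1547 in silenced 1 and 2341 in silenced 2, and Zfp35, a zinc finger gene, 14.1, 421, 50.1 and 95.6. A dimmer probe set of Impact again had control 2 highest, at 450. Another had control 2 lowest, at 119.5, with both silenced clones above both controls. Of these 5 genes, Impact, Dsg2 and Zfp35 lie in the first 52, where control 2 was highest in 6 genes.

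**Figure D4:**
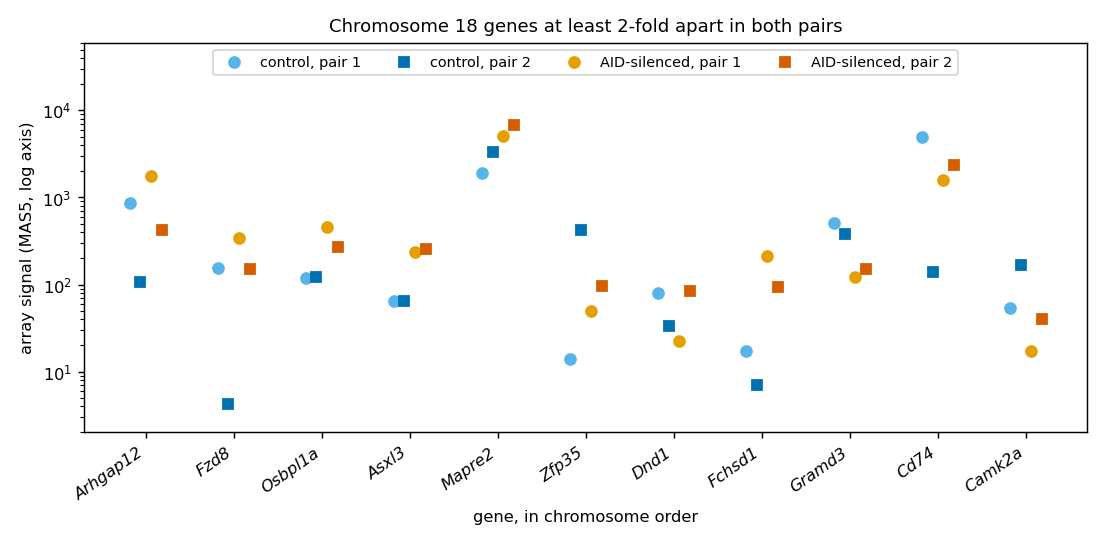
Array signal (log axis) of the 11 chromosome 18 genes whose clones differed at least 2-fold in each pair, in gene order, with 1 point per clone and no error bars because each clone has a single array. Both silenced clones lie above both controls in Osbpl1a, Asxl3, Mapre2 and Fchsd1 and below both in Gramd3 and Camk2a, while control 2 stands apart in Fzd8, Zfp35 and Cd74.

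Grouped by role, each list is described by its counts and its median difference, where the median over all 10440 genes is 0 and the shares of higher and lower genes are those given for each pair. Of 31 measured genes of transcription and chromatin, 26 passed the signal threshold, 12 of them in the first region, and their medians were 0.31 in pair 1 and 0.43 in pair 2. In each pair 8 were at least 1.5-fold higher and 0 lower. All 4 with the largest mean differences lay in the first region, namely Asxl3, Crem, Rprd1a and Ss18. Crem, the cyclic AMP responsive factor at the start of the order, had 94.3 and 62.4 in the controls and 191 and 200 in the silenced clones, and Ss18, a subunit of the BAF remodelling complex, 4150 and 4426 against 6990 and 6670. The dimmer probe sets of Crem gave 0.76 and 1.57 in pair 1 and, in the same order, 0.36 and 0.03 in pair 2.

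Of the 22 measured genes of vesicle transport, autophagy and lipid traffic, 18 passed, 3 of them in the first region, with medians of 0.16 and 0.48, and 4 were at least 1.5-fold higher in each pair and 0 lower. Npc1, which exports cholesterol from lysosomes, had 468 and 385 in the controls and 1104 and 530 in the silenced clones. Trappc8, of the complex that tethers transport vesicles, had 2101 and 1940 against 3302 and 2842. Napg, a SNAP protein of vesicle fusion in the second region, had 967 and 573 against 1076 and 1252.

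The 15 tested mitochondrial and metabolic genes, 2 of them in the first region, had medians of 0.01 in pair 1 and 0.39 in pair 2, with 3 and 1 at least 1.5-fold higher and 2 and 0 lower. Mtpap, the mitochondrial poly(A) polymerase, lies in the first region and had 2209 and 2026 in the controls and 3795 and 2750 in the silenced clones. The 17 genes of translation and protein folding had medians of 0.10 and 0.35, with 2 higher in each pair and 0 lower. Riok3, an atypical kinase linked to ribosome maturation, had 2858 and 2143 against 5243 and 2488, so that silenced 2 lay between the controls at this probe set, while its 3 other probe sets had both silenced clones above both controls. Dcp2, the messenger RNA decapping enzyme in the second region, had 989 and 526 against 1095 and 1439, so that silenced 2 was highest and control 2 lowest. At a dimmer probe set of Dcp2 silenced 2 was again highest, at 215, but silenced 1 was lowest, at 139 against 148 in control 2.

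Among the bright genes of the second region are Mzb1, Sec11c, Lman1 and Srp19, 4 genes of the secretory pathway that were named after their values were seen. Mzb1, a chaperone of immunoglobulin assembly, had 18305 and 15379 in controls 1 and 2, 13510 in silenced 1 and 24296 in silenced 2. Sec11c, of the signal peptidase, had 7407 and 7516 in the controls, 8419 in silenced 1 and 11548 in silenced 2. Lman1, a cargo receptor out of the endoplasmic reticulum, had 7302, 10724, 9341 and 12935, and Srp19, of the signal recognition particle, 7186, 7903, 7090 and 11328. Silenced 2 was the highest of the 4 clones in each. With the array medians taken off, it was highest in 140 of the 209 genes of the region (67.0%), against 27.2% on the other chromosomes. Silenced 1 lay above both controls in Sec11c, between them in Lman1 and below both in Mzb1 and Srp19. The order was not shared by Reep5 and Sil1, also of the endoplasmic reticulum and region, in which silenced 1 was highest, at 9947 against 8649 and 1571 against 1354 in silenced 2.

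The 12 tested SMAD and WNT signalling genes had medians of 0.19 and 0.32, with 3 higher in each pair and 0 and 1 lower. Mapre2 led this list, and Spry4, an inhibitor of receptor tyrosine kinase signalling, followed at signals of 66.3 and 22.2 in the controls and 119 and 90.4 in the silenced clones. The 14 tested lymphocyte and innate immune genes, 13 of them in the second region, had medians of 0.08 in pair 1 and 0.15 in pair 2, beside 0.01 and 0.37 for that region, with 0 and 5 at least 1.5-fold higher and 5 and 4 lower. Pmaip1, the proapoptotic protein Noxa, had 240 and 266 in the controls and 138 and 124 in the silenced clones, below both controls in both. Tnfaip8, a regulator of cell death, had 252 in control 1, 44.3 in control 2, 366 in silenced 1 and 166 in silenced 2. Of 25 measured protocadherins 2 passed the threshold, and of 7 measured desmosomal and classical cadherins only Dsg2 did, so these families are mostly under the level at which they can be followed. In all 8 lists, 0 members passed limma at an adjusted p under 0.05.

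Some genes lay far from the level of their region. In the first region Gm15972, Osbpl1a, Garem1 and Asxl3 had the largest silenced 1 minus control 1 differences, 1.64 to 1.78. Cetn1, a centrin, and Bambi, a decoy receptor of TGF-beta signalling, ran against it at −1.03 and −0.70. Bambi had 77.4 and 109 in the controls and 41.6 and 43.3 in the silenced clones, so it was the lower in both pairs. In pair 2, Cd74, Fzd8, Fchsd1 and Jcad had the largest differences, 2.01 to 3.97, each with a control 2 signal of at most 138. Between the silenced clones in the second region, Cep76, a centrosome protein, was 1.69 higher in silenced 2, while Arap3, a GTPase activator, had −2.09 and Cystm1 −1.27. The threshold itself fell between Dnd1, Fchsd1 and Gm15972, with mean log2 values of 6.03, 6.04 and 6.05, and Rab27b, Myo7b and Celf4, with 6.00, 5.96 and 5.96.

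A test across both pairs did not single out any chromosome 18 gene. With limma over 22519 probe sets, 2 probe sets (0.00888%) passed an adjusted p under 0.05 for AID-silenced against control clones, and 0 of the 261 genes did. The lowest adjusted p was 0.778, reached by Asxl3. At an unadjusted p under 0.05, 28 of the 261 (10.7%) passed, 24 higher and 4 lower, against 3.49% of all probe sets, and 18 of the 24 and 1 of the 4 lay in the first region. The chromosome was chosen on these arrays and its first region was set by pair 1, so these shares describe it and test nothing. They also set 1 brightest probe set per gene against all 22519 probe sets, dimmer ones of the same genes included. With the pair as a replicate block, 8 probe sets (0.0355%) passed overall and 0 of the 261, the lowest adjusted p being 0.175 for Mapre2, and 52 genes (19.9%) had an unadjusted p under 0.05 (48 higher, 4 lower), against 7.63% of all probe sets in that fit. For pair 2 against pair 1, 0 of 22519 probe sets (0%) passed, and among the 261 genes 37 (14.2%) had an unadjusted p under 0.05 (25 higher in pair 2, 12 lower), near the 13.5% of all probe sets, with a lowest adjusted p of 0.245.

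Leaving out a control array changed these calls. Without control 1, limma called Fzd8 (log2 fold change 3.61, adjusted p = 0.0140), Dsg2 (−3.77, adjusted p = 0.00484) and Cd74 (3.66, adjusted p = 0.00123) of 146 probe sets called in all. Without control 2, it called Cyb5a (3.86, adjusted p = 0.00138) of 52. Each such fit has 1 control array, taken to vary like the silenced clones, and these are the genes in which the remaining control stood apart. Without silenced 1 or silenced 2, it called 0 of the 261. For pair 2 against pair 1, leaving out silenced 2 called Dsg2 (3.97, adjusted p = 0.0439) of 59, and leaving out any other array called 0 of the 261.

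Chromosome 18 was not alone in differing between these clones. In pair 1 its overall median of 0.08 had rank 3 of 20 chromosomes, below chromosome 16 (0.30) and chromosome 9 (0.15). Of the other 19 chromosomes, 5 held a break in this pair, and their segment medians reached 0.72 over 88 genes of chromosome 8 and −0.72 over 40 genes of chromosome 1, beside the 0.74 of Crem to Mocos. In pair 2 its median of 0.37 was the highest of 20, followed by chromosome 16 with 0.28. Of the other 19, 5 held a break in pair 2, chromosome 16 among them, with segments of 33 genes at 0.87 and of 66 genes at −0.93 on chromosome 15. Between the silenced clones, chromosome 18 had 0.28, the other 19 lay between −0.06 and 0.04, and 0 of them held a break. Between the controls, chromosome 18 had 0.02, chromosome 9 had 0.32, and 6 of the other 19, chromosome 9 among them, held a break. No test of these differences between chromosomes was made, since chromosome 18 was chosen from them.

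**Figure D5:**
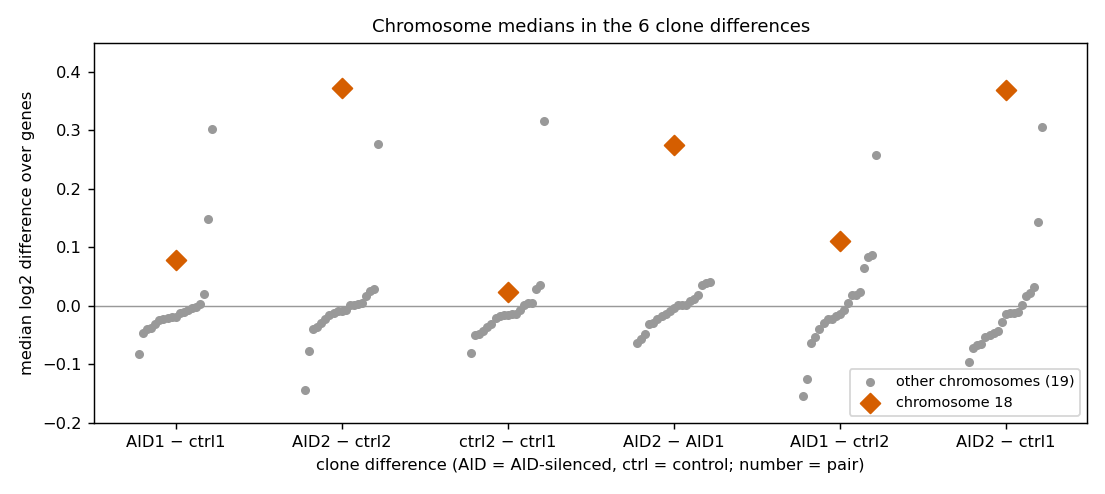
Median log2 difference over the genes of each chromosome in the 6 clone differences, with chromosome 18 as orange diamonds and the other 19 chromosomes as grey dots. Chromosome 18 is highest at 0.37 for silenced 2 against each control and at 0.28 between the silenced clones, where the other chromosomes lie between −0.06 and 0.04, and it lies at 0.02 between the controls.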

How the data were processed

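The authors deposited 1 intensity per probe set on a linear scale, and the submitters' processing notes name MAS5. Each array was already scaled to a 2% trimmed mean of 500, as checked on the values, so no further normalisation was applied. Of 45101 probe sets, 64 control probe sets were left out. The platform annotation gave 34958 a single symbol, 932 several and left 9147 unlisted, and 34754 found their gene in a RefSeq table of assembly GRCm38.p6, used for names, chromosomes and gene order only. The build behind the files is not given in the sources used here, so no coordinates are printed. Matching gave 18032 measured genes, of which 10440 were tested.

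Segments minimised absolute deviations from segment medians, with a penalty of 2 log(n) per break on a scale set by neighbouring differences over all chromosomes. Groups were compared with limma 3.58.1 (R 4.3.3, trended and robust prior) over 22519 probe sets. Both steps were tested on simulated data. Same-numbered clones deviated together (r = 0.306 across probe sets between the pair differences of both groups), and a paired fit was an alternative. The members and gene lists were chosen with earlier results of these data known. Genes were named at segment ends, as furthest from a segment level, at 2-fold in both pairs or between pairs, and as the largest mean differences of each list. Klrk1, Cd68, Cd8a, Cd3e, Cd5, Ms4a1, Mzb1, Sec11c, Lman1, Srp19, Reep5 and Sil1 were added afterwards. The level of the silenced gene is not reported here. The alternatives changed the scaling (quantile or median), the pseudocount (1 or 64), the signal threshold, the choice of probe set (mean of all), the penalty, the shortest segment, the block and the arrays used, leaving out each in turn.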

Additional observations from a re-analysis of the deposited data

Results flagged for a closer look

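In 3 chromosome 18 genes the AID-silenced clone was at least 2-fold higher than its control in one pair and at least 2-fold lower in the other, and the difference between the pairs was not tested. Zfp35 had a log2 difference of 1.13 in pair 1 and −1.96 in pair 2. Dnd1, an RNA-binding protein at the signal threshold, had −1.34 in pair 1 and 1.03 in pair 2, with signals of 22.3 to 84.1. Cd74 had −1.64 in pair 1 and 3.97 in pair 2. With 2 clones per group, no group was large enough for a search for a single array far from the others.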

How the results depend on the processing

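Of 196 alternative values, 185 stayed close to the values reported, and 11 moved. A median counted as close within 0.1, and some values counted as close still changed. Without the signal threshold the pair 2 median fell from 0.37 to 0.28, and genes at least 1.5-fold higher in control 2 than in control 1 rose from 11.5% to 16.1%. The pair 1 shift ended at Mocos under all 11 alternatives run for it, and the number of segments of each of the 6 differences did not change. Without the signal threshold the median of the pair 1 segment fell to 0.49, that of silenced 2 minus silenced 1 over the chromosome to 0.17, and genes at least 1.5-fold lower rose to 10.7% in pair 1 and 12.4% in pair 2. With a stricter threshold they fell to 2.29% and 0.571%, those lower in silenced 2 than in silenced 1 to 5.71%, and those higher in control 2 than in control 1 to 6.86%. Without the threshold, the first segment of silenced 1 minus control 2 ended at Npc1 after 41 of 459 genes, and that between the silenced clones at Gm3227. Leaving out each array in turn, limma called 0 to 3 of the chromosome 18 genes for AID-silenced against control clones and 0 to 1 for pair 2 against pair 1. With the replicate block, the paired fit called 0 of them in both comparisons, as without it. One array per clone limits every value, and dim genes vary most.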
